A study of Mus musculus with 6 samples.

Results

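The insulin-like growth factor (IGF) system was described in hypothalamic neural stem/progenitor cells (NSC/NPCs) by 10 genes, which were the ligand gene Igf1, the receptor genes Igf1r and Insr, the binding protein genes Igfbp2, Igfbp3, Igfbp4, Igfbp5 and Igfbp6, and the related genes Igfbp7 and Igfbpl1. They were chosen by name for their place in the system, and each was found by its symbol among the 22048 genes of the expression table. RNA-Seq had been performed on 3 samples of a high estradiol (HE) group and 3 of a control (NC) group. The dams were C57BL/6 mice of 8 weeks, which received estradiol valerate at 100 μg/kg/d (HE) or the corn oil solvent (NC) by gavage, starting at E5.5 and ending at E11.5, although the NC samples carry the label "untreated". In both groups the cells came from hypothalami of male fetuses at E14.5, and the litters behind the samples were not given. The study's methods give each sample as cells of 2 mice, whereas the labels can be read as 2 mice in each group, in which case the 3 samples of a group would not all be separate animals. The cells were grown as floating neurospheres to the first passage with 2% B27, EGF at 10 ng/mL and bFGF at 10 ng/mL. The estradiol was given to the dam, so the cells were sequenced after a period in culture without that treatment.

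IGF1 and the related IGF2 signal through the IGF1 receptor, a tyrosine kinase that shares its architecture with the insulin receptor, and both receptors recruit IRS and SHC adaptors that lead to PI3K-AKT and ERK signaling. The secreted IGF binding proteins hold the ligands with high affinity and can either limit or prolong their action, and proteases such as PAPP-A release the ligand by cutting them. In the developing brain the system is known for supporting growth, survival and division of neural progenitors. B27 supplement contains insulin, which at high concentration also activates the IGF1 receptor, so both receptors can be engaged in this medium without ligand made by the cells.

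The promoters of 4 members are shown because estradiol acts through receptors that bind DNA, and because these members cover a receptor and the binding proteins with the most RNA or with the largest higher values in HE. Each run is the 250 bases before a RefSeq transcript start in GRCm38.p6, on the plus strand. The windows are chr7:67952007-67952256 for Igf1r, chr1:72824230-72824479 for Igfbp2, chr11:99040994-99041243 for Igfbp4 and chr15:102143936-102144185 for Igfbp6. Capitals mark matches, on either strand, to GGTCA, which is 1 arm of the estrogen response element (a palindrome of GGTCA, any 3 bases and the reverse complement TGACC), to the GC box GGGCGG, to the TATA box TATAAA and to the E-box CACGTG.
Igf1r: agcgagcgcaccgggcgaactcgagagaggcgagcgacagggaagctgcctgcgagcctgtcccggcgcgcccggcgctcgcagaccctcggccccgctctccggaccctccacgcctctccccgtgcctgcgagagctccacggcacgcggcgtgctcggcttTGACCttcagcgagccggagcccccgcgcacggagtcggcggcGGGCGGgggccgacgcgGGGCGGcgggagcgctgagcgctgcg
Igfbp2: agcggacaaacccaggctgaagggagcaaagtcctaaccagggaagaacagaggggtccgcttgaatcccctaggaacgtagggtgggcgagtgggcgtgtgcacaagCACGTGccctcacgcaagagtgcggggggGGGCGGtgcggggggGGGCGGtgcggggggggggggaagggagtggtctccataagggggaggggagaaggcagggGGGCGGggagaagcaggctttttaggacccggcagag
Igfbp4: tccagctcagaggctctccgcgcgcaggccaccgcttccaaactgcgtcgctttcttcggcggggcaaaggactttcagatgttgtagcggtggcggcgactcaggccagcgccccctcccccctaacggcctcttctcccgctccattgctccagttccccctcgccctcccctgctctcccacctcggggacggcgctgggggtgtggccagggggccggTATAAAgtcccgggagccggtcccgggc
Igfbp6: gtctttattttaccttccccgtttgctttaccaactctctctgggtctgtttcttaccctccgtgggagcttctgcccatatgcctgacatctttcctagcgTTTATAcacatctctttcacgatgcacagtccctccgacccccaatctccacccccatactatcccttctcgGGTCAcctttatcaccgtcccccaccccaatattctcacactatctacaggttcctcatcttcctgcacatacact

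Promoter windows were found for 8 of the 10 members, in 9 windows, with none for Insr and Igfbpl1. The whole palindrome was in 0 of the 9 windows and in 0.0639% of all 32851 windows of that length. The arm GGTCA, which also lies within the palindrome, was in 5 of the 9 windows, those of Igf1, Igf1r, Igfbp2, Igfbp6 and Igfbp7, against 35.2% of all windows. For Igfbp2 that match was in a different window from the one printed. GGGCGG was in 3 of the 9 windows (Igf1r, Igfbp2 and Igfbp7), against 32.7% of all. TATAAA was in those of Igfbp4 and Igfbp6, against 12.4% of all, and in Igfbp4 it lay 28 to 23 bases before the start. CACGTG was in the Igfbp2 window alone among the 9, against 6.02% of all. The printed Igf1r window was the richest of these 4 in G and C, at 77.6%, and that of Igfbp6 the poorest, at 49.6%.

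Reads counted on genes numbered 16078675 to 19137059 per sample, and 13952 genes, all 10 members among them, had enough reads to be tested. Levels are given in RPKM (reads scaled to gene length in kilobases and to library size), which allows comparison between genes, and fold changes are HE minus NC on the log2(RPKM + 0.1) scale. The test was limma across all 13952 genes, and a call needed an adjusted p below 0.05 together with a log2 fold change of 1 or more in either direction. HE3 stood apart from the other samples. Its sample weight in limma was 0.158, against 0.852 to 2.87 in the others, and it had the fewest reads. Results that rest on HE3 are therefore given with and without it. Of the RNAs that mark neural stem cells, the filament gene Nes had 157.6 to 204.3 RPKM in NC and 154.4 to 247.2 in HE, and the factor gene Sox2 had 195.5 to 208.9 in NC and 97.3 to 175.6 in HE, without overlap. Pax6 had only 2.30 to 4.55 RPKM over all samples, and the astrocyte marker Gfap had 195.1 to 753.8 RPKM. In RNA from whole cultures, fewer cells of a type and less RNA per cell cannot be told apart. The p-values measure the spread between these samples only.

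The members spanned a wide range of levels. Averaged over the 6 samples, Igfbp2 had the most RNA at 741 RPKM, a level above that of 99.5% of tested genes. Igfbp3 followed at 195 RPKM, Igfbp5 at 87.7 RPKM and Igfbp4 at 19.8 RPKM. The sample ranges of these 4 genes did not overlap, although Igfbp4 at 40.3 RPKM nearly met Igfbp5 at 41.0 RPKM in HE3. Igfbpl1 at 9.18 RPKM, Igf1r at 7.38, Igfbp6 at 6.14, Igfbp7 at 6.14 and Insr at 6.06 lay close together in the middle of all tested genes, and their sample ranges overlapped. Igf1 was last at 0.103 RPKM, above 0.738% of tested genes. Each binding protein gene among the members thus had more RNA in these neurospheres than Igf1.

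**Figure D1:**
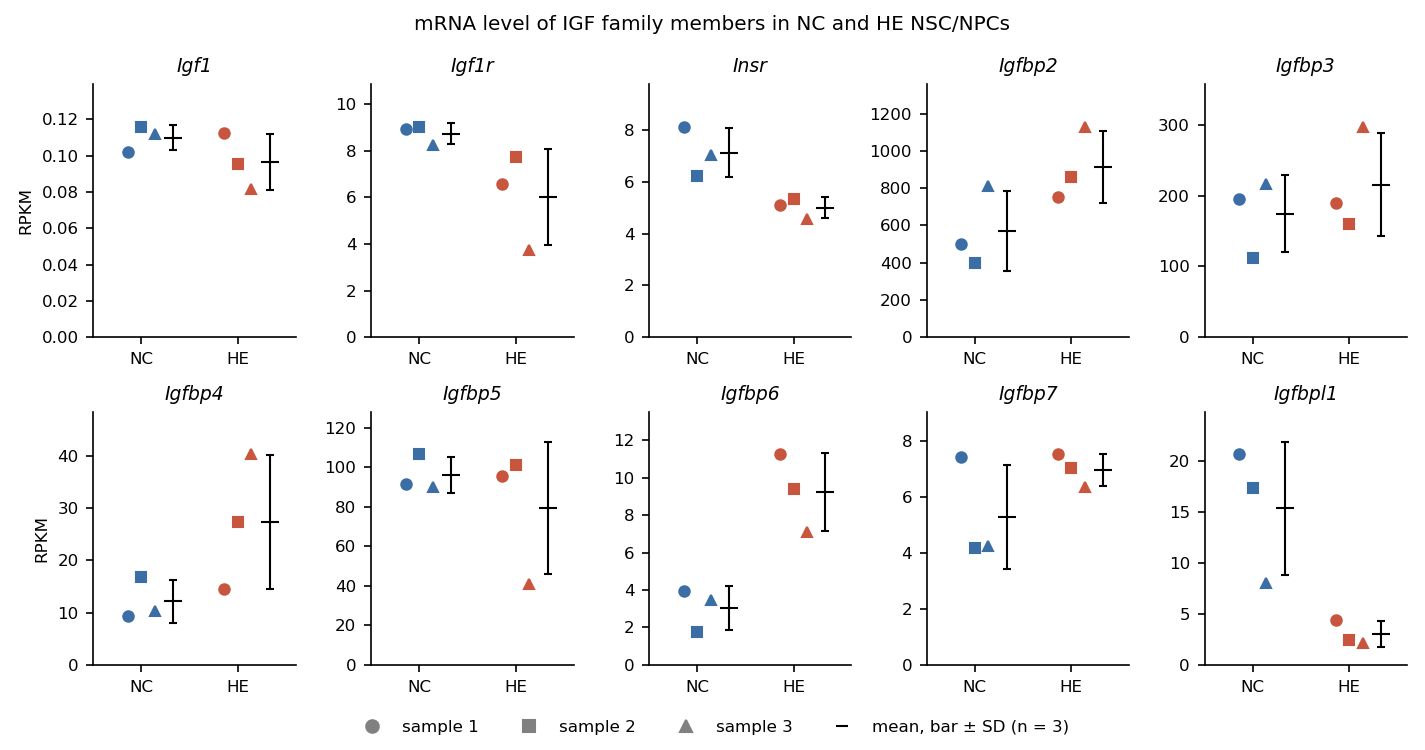
Level of the 10 members in each sample, in RPKM on linear axes from 0, with 1 panel per gene, 3 NC and 3 HE points and each group's mean with its SD as a bar. Igfbp6 is higher and Igf1r, Insr and Igfbpl1 are lower in each HE sample than in each NC sample, while the other 6 members overlap.

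Igf1, on chromosome 10 (chr10:87858265-87937047, GRCm38.p6), encodes the ligand. It drew 19 reads in NC1, 22 in NC2 and 21 in NC3, and 20 in HE1, 18 in HE2 and 13 in HE3. Over the samples these counts have exact 95% Poisson intervals from a lowest bound of 6.92 reads to a highest of 33.3, which cover counting error only. The levels were 0.102, 0.116 and 0.112 RPKM in NC1, NC2 and NC3. In HE1, HE2 and HE3 they were 0.113, 0.0953 and 0.0816 RPKM. The groups overlapped, with a log2 fold change of -0.10 (SE 0.21, 95% interval -0.60 to 0.41, adjusted p = 0.796 by limma). The added 0.1 RPKM is about the level of Igf1 itself and damps this value. With voom on the read counts it was -0.19 (95% interval -0.91 to 0.54), and with 1 RPKM added it was -0.018. The voom interval gives the differences that these counts allow, and a detection limit was not computed.

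Igf1r, on chromosome 7 (chr7:67952257-68233668), encodes the tyrosine kinase receptor for IGF1 and IGF2. Its RNA stood at 8.94 RPKM in NC1, 9.04 in NC2 and 8.25 in NC3, and at 6.59 in HE1, 7.73 in HE2 and 3.74 in HE3. Every HE sample was below every NC sample, and HE3 was far below the other HE samples. The mean was 8.74 ± 0.433 RPKM (SD, n = 3) in NC and 6.02 ± 2.05 in HE. Between groups the log2 fold change was -0.59 (SE 0.26), with an interval from -1.20 to 0.01, an unadjusted p of 0.0543 and an adjusted p of 0.249 by limma. Without HE3 the log2 fold change was smaller at -0.29, with an unadjusted p of 0.0420, and the groups still did not overlap.

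Insr, on chromosome 8 (chr8:3150922-3279649), encodes the insulin receptor. Its level was 8.12 RPKM in NC1, 6.22 in NC2 and 7.01 in NC3, against 5.09 in HE1, 5.33 in HE2 and 4.55 in HE3. The HE samples lay close together and all below the lowest NC sample. Group means were 7.12 ± 0.957 RPKM in NC and 4.99 ± 0.400 in HE (SD, n = 3), and the log2 fold change was -0.50 (SE 0.15, 95% interval -0.85 to -0.15). The unadjusted p of 0.0115 became 0.195 after adjustment over all genes by limma. HE3 had little bearing on Insr, since the log2 fold change was -0.43 without it.

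Both receptors had similar RNA levels, and their ratio was examined as a measure of its own. Igf1r over Insr was 1.10 in NC1, 1.45 in NC2 and 1.18 in NC3, and 1.29 in HE1, 1.45 in HE2 and 0.821 in HE3. The groups overlapped, and HE3 was the only sample with more Insr than Igf1r RNA. On the log2 scale the mean ratio differed by -0.10 between HE and NC (exact two-sided permutation test, p = 0.8 over 20 assignments, whose smallest p is 0.1). Without HE3 this difference was 0.15, in the opposite direction.

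Igfbp2 and Igfbp5, 5590 bases apart on chromosome 1, encode binding proteins that are abundant in the nervous system. Igfbp2 (chr1:72824480-72852474) had 499.6 RPKM in NC1, 398.8 in NC2 and 809.3 in NC3, and 751.8 in HE1, 858.9 in HE2 and 1130 in HE3. NC3 exceeded HE1, so the groups overlapped, although the other NC samples lay below all HE samples. The mean was 569 ± 214 RPKM in NC and 914 ± 195 in HE (SD, n = 3). The log2 fold change of 0.73 (SE 0.29, 95% interval 0.04 to 1.41) had an unadjusted p of 0.0413 and an adjusted p of 0.231 by limma. Without HE3 it was 0.56, with an unadjusted p of 0.101.

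Igfbp5 (chr1:72858065-72874865) had 91.7 RPKM in NC1, 106.5 in NC2 and 90.0 in NC3. In HE1 and HE2 it was at 95.7 and 101.2 RPKM, inside the NC range, and HE3 alone was low at 41.0 RPKM. The log2 fold change of -0.38 (SE 0.33, adjusted p = 0.497 by limma) rested on HE3, since it was 0.04 without that sample. The neighbouring Igfbp2 was at its highest in the same sample.

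Igfbp3, on chromosome 11 (chr11:7206086-7215498), encodes the main carrier of IGFs in serum. It stood at 194.9 RPKM in NC1, 112.5 in NC2 and 216.6 in NC3, and at 189.8 in HE1, 159.9 in HE2 and 297.6 in HE3. Only HE3 lay above the NC range. The log2 fold change was 0.31 (SE 0.31, 95% interval -0.43 to 1.04, adjusted p = 0.560 by limma) and 0.05 without HE3.

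Igfbp4, also on chromosome 11 (chr11:99040005-99052655), encodes a binding protein that is known as an inhibitor of IGF action and as the main substrate of the protease PAPP-A. Its level was 9.33 RPKM in NC1, 16.9 in NC2 and 10.3 in NC3, against 14.6 in HE1, 27.3 in HE2 and 40.3 in HE3. HE1 fell between NC samples, so the groups overlapped, and HE3 was highest. The mean was 12.2 ± 4.12 RPKM in NC and 27.4 ± 12.9 in HE (SD, n = 3), a ratio of 2.25. This gave a log2 fold change of 1.10 (SE 0.38, 95% interval 0.19 to 2.00), with an unadjusted p of 0.0239 and an adjusted p of 0.208 by limma. It was 0.76 without HE3, with an unadjusted p of 0.0599.

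Igfbp6, on chromosome 15 (chr15:102144186-102149512), encodes a binding protein that prefers IGF2 over IGF1. It had 3.93 RPKM in NC1, 1.74 in NC2 and 3.47 in NC3, and 11.3 in HE1, 9.38 in HE2 and 7.10 in HE3. Each HE sample was well above the highest NC sample. The mean was 3.04 ± 1.15 RPKM in NC and 9.25 ± 2.08 in HE (SD, n = 3), a ratio of 3.04. These levels rested on 37 to 82 reads in the NC samples and 127 to 224 in the HE samples. The log2 fold change of 1.63 (SE 0.32, 95% interval 0.87 to 2.38) had an unadjusted p of 0.0013 and an adjusted p of 0.195 by limma, and was 1.80 without HE3.

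The RNA of Igfbp2 to Igfbp6, the 5 members that encode high-affinity binding proteins, was summed. Igfbp1, which is not a member, had too few reads to be tested and was left out. The sum was 799 RPKM in NC1, 636 in NC2 and 1130 in NC3. It was 1063 RPKM in HE1, 1157 in HE2 and 1516 in HE3. NC3 lay between HE1 and HE2. Igfbp2 made up most of each sum, 62.5% to 71.6% in the NC samples and 70.7% to 74.5% in the HE samples. The share of Igfbp5 was 7.97% to 16.7% in NC, 9.0% in HE1, 8.75% in HE2 and 2.70% in HE3. The sum was therefore mainly a measure of Igfbp2, and Igfbp6, which had the largest fold difference of the 5, was 1.06% of it or less in every sample.

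**Figure D2:**
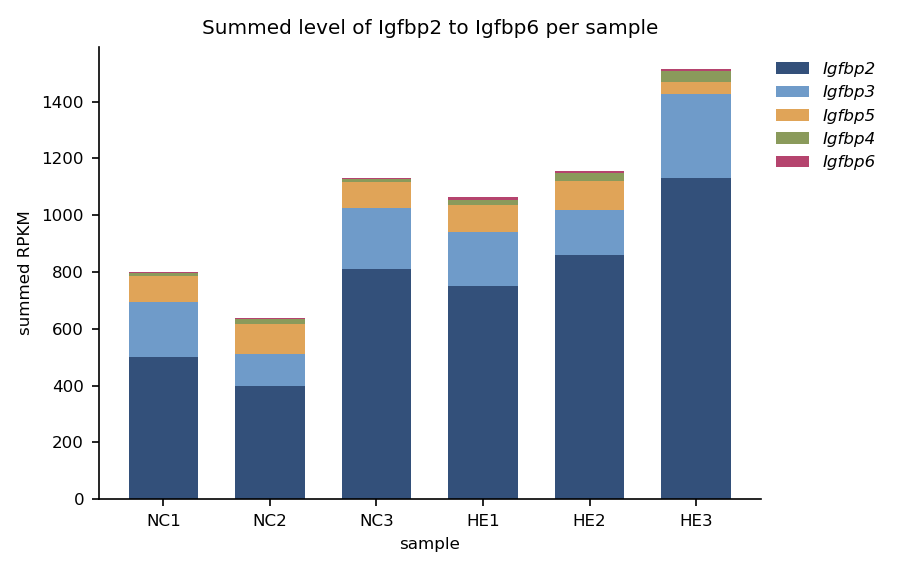
Summed RPKM of Igfbp2 to Igfbp6 in each of the 3 NC and 3 HE samples, as stacked bars from 0 with 1 colour per gene. Igfbp2 fills most of each bar, the sums run from 636 RPKM in NC2 to 1516 in HE3, and the Igfbp5 part is smallest in HE3.

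Igfbp7, on chromosome 5 (chr5:77349240-77408045), encodes a matrix protein that binds IGFs only weakly. Its level was 7.45 RPKM in NC1, 4.19 in NC2 and 4.23 in NC3, against 7.53 in HE1, 7.03 in HE2 and 6.38 in HE3. NC1 reached the HE levels and the other NC samples did not. Across groups the log2 fold change was 0.44 (SE 0.24, 95% interval -0.11 to 1.00, adjusted p = 0.304 by limma). Without NC1 it was 0.71, with an unadjusted p of 0.0042.

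Igfbpl1, on chromosome 4 (chr4:45809507-45826827), encodes a secreted protein related in sequence to IGFBP7 and known in the nervous system from developing neurons and their axons. It had 20.7 RPKM in NC1, 17.3 in NC2 and 8.07 in NC3, and 4.45 in HE1, 2.45 in HE2 and 2.14 in HE3. Every HE sample was below every NC sample, and NC3 was the nearest to the HE samples. The mean was 15.4 ± 6.52 RPKM in NC and 3.02 ± 1.25 in HE (SD, n = 3), so NC was 5.09 times HE. The log2 fold change of -2.28 (SE 0.40, 95% interval -3.22 to -1.33) was the largest of the 10 in size, with an unadjusted p of 0.0007 and an adjusted p of 0.195 by limma. Without HE3 it was -2.07, and without NC3 it was -2.68 with an adjusted p of 0.0246 by limma.

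Together, 5 of the 10 members had higher mean log2 levels in HE and 5 lower, with a median log2 fold change of 0.11 against -0.06 over all tested genes. At an unadjusted p below 0.05 there were 5 members, against 20.5% of all tested genes. Igfbp2, Igfbp4 and Igfbp6 were the 3 higher ones, against 8.68% of all genes, and Insr and Igfbpl1 were the 2 lower ones, against 11.8%. The groups did not overlap in 4 members, against 32.7% of all tested genes. Igfbp6 was the 1 higher in HE, against 14.8%, and Igf1r, Insr and Igfbpl1 were the 3 lower, against 17.9%. None of the 10 was called by limma after adjustment, nor was any of the 13952 genes (0%), and the members' adjusted p ran from 0.195 to 0.796. Voom weights on the read counts also gave 0 calls over all genes. Sample weights gave 268, or 1.92% of genes, and among them were Igfbp6 (log2 fold change 1.57, adjusted p = 0.0297 by limma) and Igfbpl1 (-2.38, adjusted p = 0.0264 by limma). Without NC3 there were 103 calls, or 0.738% of genes, with Igfbpl1 among them. Without HE3, 4 members had an unadjusted p below 0.05, 1 higher (Igfbp6) and 3 lower (Igf1r, Insr and Igfbpl1), against 19.9% of all genes, and 4 did not overlap, against 40.7%.

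**Figure D3:**
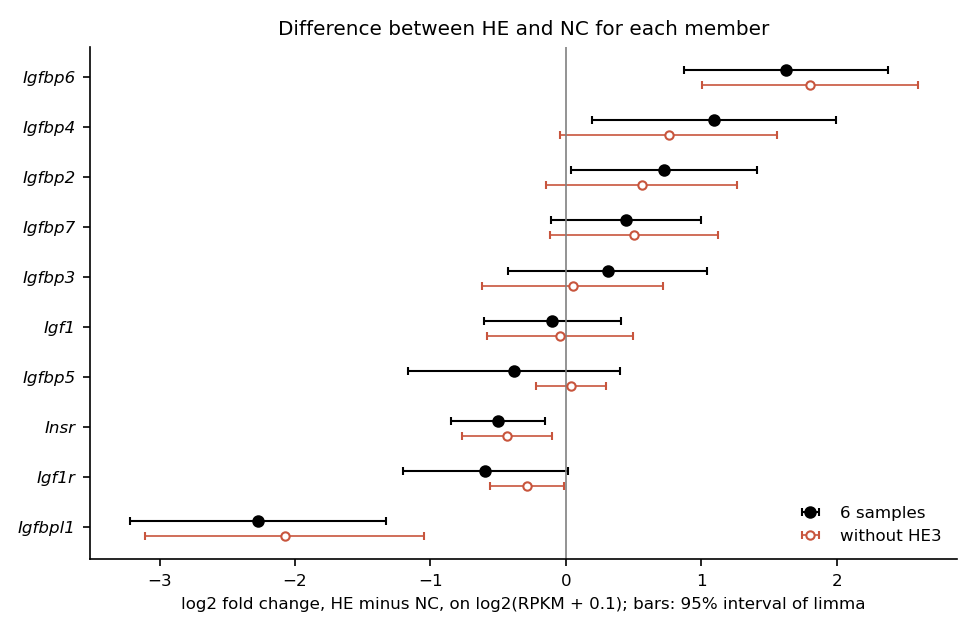
Log2 fold change of each member, HE minus NC on the log2(RPKM + 0.1) scale, as points with 95% intervals from limma over 3 NC and 3 HE samples, with the values and intervals without HE3 as open points. Igfbp6 at 1.63 and Igfbpl1 at -2.28 lie farthest from 0, and Igfbp5 and Igfbp3 are near 0 without HE3.

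The remaining genes of the system were followed in 4 lists of textbook members. The first held 16 other genes, among them those of ligands, receptors, binding proteins and proteases. It also held genes outside these classes, such as Igf2bp1, Igf2bp2, Igf2bp3, Stc1 and Stc2. Of the 16, 12 were tested, since Igfbp1, Ins1, Ins2 and Insrr had too few reads. Of the 12, 2 were higher and 10 lower in HE at any p, with a median log2 fold change of -0.28. Of all tested genes, 56.2% were lower at any p. At an unadjusted p below 0.05 there was 1 higher, against 8.68% of all tested genes, and there were 3 lower, against 11.8%. Adam12, which encodes a protease that cuts IGFBPs, had 5.75, 4.30 and 6.34 RPKM in NC and 7.81, 10.1 and 14.9 in HE, with a log2 fold change of 0.95 (SE 0.26, adjusted p = 0.195 by limma). Pappa, which encodes PAPP-A, was at 1.07, 0.730 and 0.527 RPKM in NC and 0.471, 0.257 and 0.0902 in HE, with a log2 fold change of -1.32 (SE 0.43, adjusted p = 0.197 by limma). Htra1, which encodes a secreted serine protease that also acts on IGFBPs, had a log2 fold change of -0.63, and Igf2bp2, which encodes an RNA-binding protein, one of -0.43. In Adam12, Pappa, Htra1 and Igf2bp2 the groups did not overlap, against 32.7% of all tested genes. Igf2, the other ligand gene, was picked after its values were seen and had 2.75 to 4.78 RPKM in NC and 1.23 to 3.96 in HE, which overlapped. Without HE3 the list had 6 genes higher and 6 lower, and its median was 0.02.

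Downstream of the receptors, all 24 genes of the adaptor, PI3K and AKT list were tested, and 7 were higher and 17 lower in HE at any p (56.2% of all tested genes were lower), with a median log2 fold change of -0.09. Those at an unadjusted p below 0.05 were 3, all lower, a share near the 11.8% of all tested genes. Without HE3 there were 10 higher and 14 lower (50% of all tested genes were lower), with 1 higher and 3 lower at that p, against 19.9% of all tested genes in either direction. Shc1, which encodes an adaptor that links the receptors to ERK signaling, had 18.0, 16.2 and 15.0 RPKM in NC and 10.4 to 12.3 in HE, with a log2 fold change of -0.50 (SE 0.12, adjusted p = 0.195 by limma). Grb2, which encodes the adaptor that joins SHC to the exchange factor SOS, had a log2 fold change of -0.44, and Sh2b1, which encodes an adaptor of the insulin receptor, one of -0.52. Inppl1, which encodes the lipid phosphatase SHIP2, had one of -0.35. Among the TSC, mTOR and translation list, all 16 genes were tested, 8 higher and 8 lower, with a median of 0.04 and with 2 in each direction at an unadjusted p below 0.05, against 8.68% of all genes higher and 11.8% lower. The higher ones were Eif4e, encoding the cap-binding factor, at 0.43, and Eif4ebp1, encoding its inhibitor, at 0.30. The lower ones were Tsc1 at -0.53 and Tsc2 at -0.42, which encode the partners of the complex that restrains mTORC1.

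FoxO factors are shut out of the nucleus by AKT, and their list held 16 genes, factors and textbook targets, of which 15 were tested, all but Trim63. All 15 had lower mean log2 levels in HE at any p, against 56.2% of all tested genes, with a median log2 fold change of -0.60. At an unadjusted p below 0.05 there were 4, all lower, against 11.8% of all tested genes, and in 6 the groups did not overlap, all lower, against 17.9%. Bcl2l11, which encodes the pro-apoptotic protein BIM, had 7.52, 6.28 and 6.48 RPKM in NC and 4.72, 4.73 and 3.45 in HE, with a log2 fold change of -0.65 (SE 0.17, adjusted p = 0.195 by limma). Pdk4, which encodes a kinase that inhibits pyruvate dehydrogenase, was at 4.07, 5.70 and 5.58 RPKM in NC and 3.25, 2.54 and 1.21 in HE, with a log2 fold change of -1.19 (SE 0.35, adjusted p = 0.195 by limma). Foxo4 had a log2 fold change of -0.53 and Cdkn1b, which encodes a CDK inhibitor, one of -0.70. The list depended on HE3 for its size and, in 4 genes, for its direction. Its summed level was 317 to 326 RPKM in NC, 309 in HE1, 297 in HE2 and 114 in HE3, and without HE3 the median was -0.25, with 4 genes higher and 11 lower, against 50% of all tested genes lower. No gene of the 4 lists was called.

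**Figure D4:**
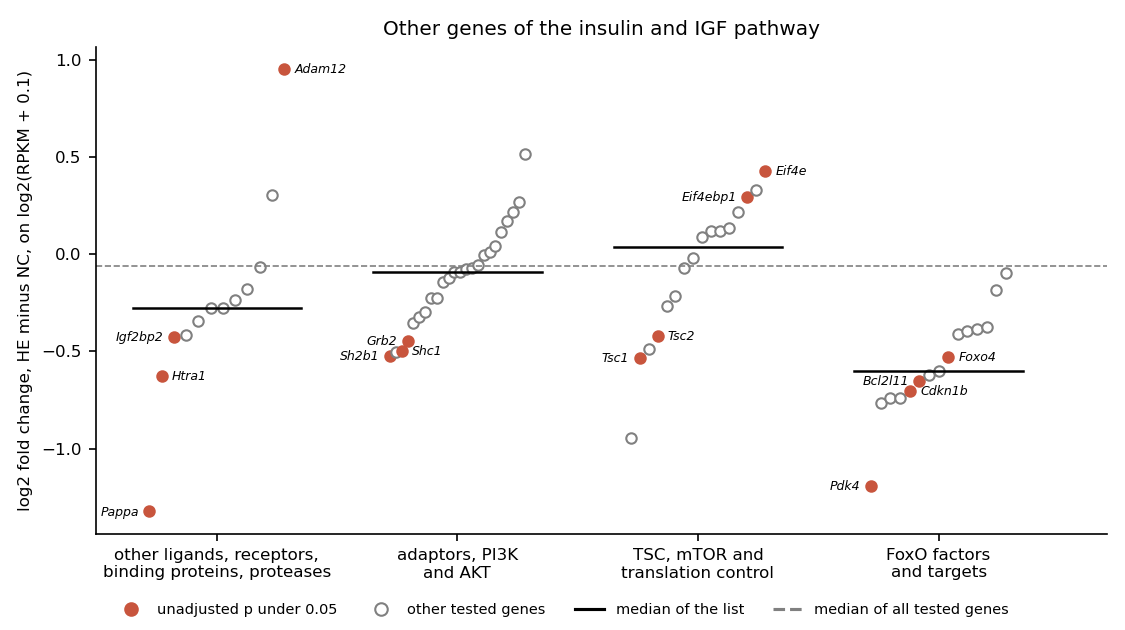
Log2 fold change of each tested gene of the 4 pathway lists, HE minus NC on the log2(RPKM + 0.1) scale, from all 6 samples, as points with a line at each list's median and a dashed line at the median of all tested genes (-0.06). Filled, named points have an unadjusted p below 0.05, and all 15 FoxO list points lie below 0.

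Markers of other cell types were measured beside these results. Of the 16 mesenchymal and perivascular markers 13 were tested, 5 were higher in HE at an unadjusted p below 0.05 (8.68% of all tested genes) and 0 lower, and in 4 the groups did not overlap, all higher (14.8% of all tested genes). Their summed level was 164 RPKM in NC1, 69.7 in NC2 and 104 in NC3, and 228 in HE1, 200 in HE2 and 113 in HE3. Col3a1, a fibrillar collagen gene, had 43.3, 12.2 and 25.0 RPKM in NC and 92.7, 71.6 and 45.7 in HE, and Tagln, a smooth muscle gene, had 30.7 to 63.3 in NC and 20.1 to 43.7 in HE. Igfbp6, like the mesenchymal sum and Col3a1, was lowest in NC2 and highest in HE1, and the part of these cells in the Igfbp6 result was not tested. Endothelial markers, 5 of 10 tested, summed to 3.0 to 4.13 RPKM in NC and 4.85 to 6.45 in HE, with 2 higher at an unadjusted p below 0.05 (8.68% of all tested genes). Flt1 overlapped between groups, whereas Cdh5 had 0.341 to 0.755 RPKM in NC and 1.66 to 2.75 in HE. Microglia and macrophage markers, 4 of 12 tested, summed to 1.33 to 1.82 RPKM in NC and 2.85 to 13.6 in HE, with 1 higher at an unadjusted p below 0.05 (8.68% of all tested genes). Ctss and C1qa, which had too few reads to be tested, were at 0 in NC1 and NC2 and highest in HE3. Not all markers of this list went that way. Fcer1g had 0.362 to 0.610 RPKM in NC and 0.360 to 0.575 in HE, and P2ry12 was at its lowest in HE3, at 0.147.

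Among the markers of the neural lineage, the 12 neural progenitor genes summed to 2935 to 3632 RPKM in NC and 2887 to 4566 in HE, led by Vim and Fabp7, which carried the sum. Of the 12, 9 were lower in HE at any p (56.2% of all tested genes), with a median log2 fold change of -0.33. At an unadjusted p below 0.05, 1 was lower (11.8% of all tested genes). The groups did not overlap in 4, all lower in HE (Notch1, Msi1, Sox2 and Sox1), against 17.9% of all tested genes. Neuron markers, 10 of 12 tested, summed to 120 to 154 RPKM in NC and 138 to 272 in HE, led by Gap43 and Tubb3. At an unadjusted p below 0.05, 2 were higher (8.68% of all tested genes) and 0 lower. The groups did not overlap in 4 (Map2, Elavl4, Gap43 and Snap25), all higher in HE, against 14.8% of all tested genes. The neuron sum was carried by Gap43, at 202 RPKM in HE3 and 66.3 to 86.6 in the other samples, and 6 of the 10 tested neuron markers were lower in HE at any p (56.2% of all tested genes). Elavl3, Stmn2 and Dcx, markers of young neurons, were at their lowest in HE3, at 1.79, 1.42 and 0.103 RPKM, as was Igfbpl1. In HE1 these 3 markers were within their NC ranges, at 4.79, 5.43 and 0.380 RPKM, while Igfbpl1 was below its own. Tubb3 was at 37.0 RPKM in HE3, within its NC range of 19.1 to 46.6. In the same sample Map2, Elavl4 and Gap43 were at their highest. All 10 astrocyte markers were tested, led by Aldh1l1 and Gfap, and summed to 1684 to 2337 RPKM in NC and 1226 to 1859 in HE. Of the 10, 6 were lower in HE at any p (56.2% of all tested genes), with a median log2 fold change of -0.14. At an unadjusted p below 0.05, 1 was higher, a share near the 8.68% of all tested genes, and 0 were lower. The groups did not overlap in 1 higher marker (14.8% of all tested genes) and in 1 lower, Aldh1l1 (17.9%). The 10 oligodendrocyte lineage markers, led by Olig1 and Olig2, summed to 317 to 354 RPKM in NC and 363 to 518 in HE, with 0 of them at an unadjusted p below 0.05 (20.5% of all tested genes). Olig1 and Olig2 carried that sum, and the other 8 markers were lower in HE at any p, with a median of -0.26 over the list. This direction was not examined without HE3. Of the 8, Gpr17 and Bcas1 were above every NC sample in HE1 and HE2. Gpr17 had 18.9 to 23.6 RPKM in NC, 32.7 in HE1 and 26.6 in HE2. Bcas1 had 7.33 to 9.05 RPKM in NC, 15.3 in HE1, 11.1 in HE2 and 2.31 in HE3. In each of the rest, HE1 or HE2 lay within the NC range. In HE3, Gpr17 was at 1.53 RPKM (18.9 to 32.7 in the other samples), and Sox10 at 1.65 and Mbp at 1.79 were likewise at their lowest of the 6 samples. The part of these cell types in the members' results was not tested.

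**Figure D5:**
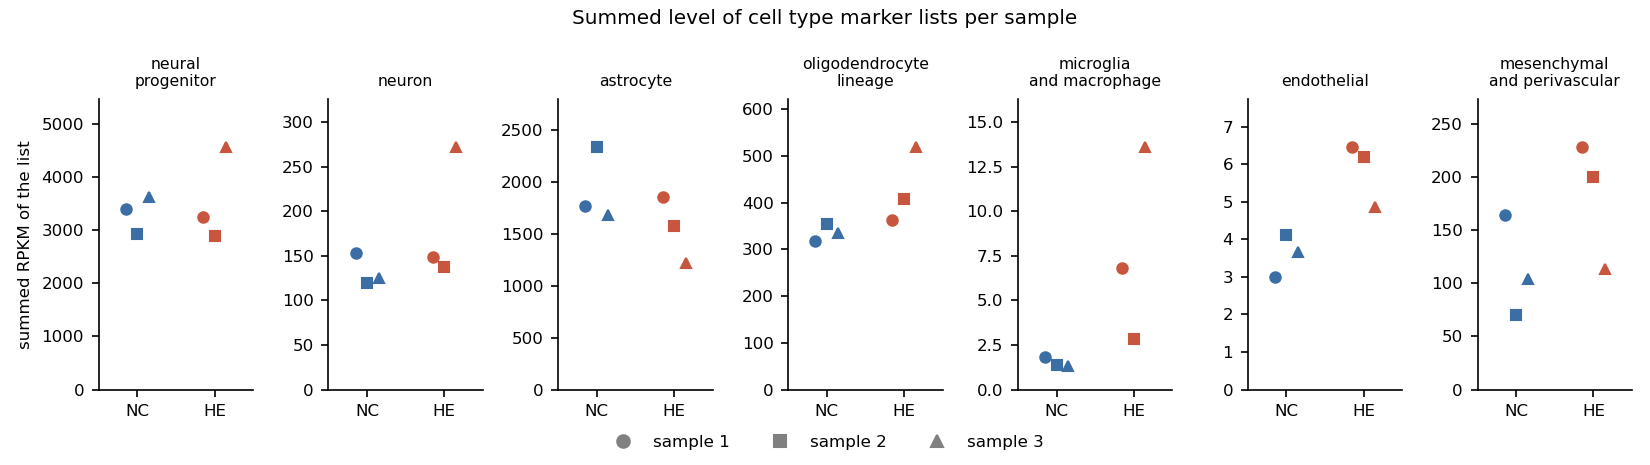
Summed RPKM of each marker list in each sample, on linear axes from 0 that differ between panels, with 3 NC and 3 HE points per cell type. The HE points lie above the NC points for the microglia, endothelial and oligodendrocyte lists, and the points overlap for the other lists. The oligodendrocyte sum was higher through Olig1 and Olig2, while its other 8 markers were lower in HE at any p with HE3 included.

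The 3 members of smallest unadjusted p were compared with 11523 other tested genes of at least 1 RPKM by Pearson's r of the log2 levels over the 6 samples, which share the group difference and the depth of each library. Igfbpl1 was most like Snx33 (r = 0.997), Mon1b (0.995) and Susd6 (0.993). Snx33 had 18.7 to 21.7 RPKM in NC and 14.8 to 16.4 in HE, a far smaller difference than that of Igfbpl1. Igfbp6 was most like Ctsk (0.992), Cep85 (0.992) and Eif3j1 (0.991). Ctsk, which encodes the collagen-cleaving protease cathepsin K, had 2.96, 1.31 and 2.79 RPKM in NC and 12.3, 8.81 and 5.43 in HE. Insr was most like Mafg (0.990), Erfe (0.986) and Myh14 (0.986). With 6 samples high values of r were common, since 158 genes reached 0.95 with Igfbpl1, 68 with Igfbp6 and 83 with Insr.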

How the data were processed

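The authors filtered the reads, aligned them with TopHat2 to mm10 (base calling with CASAVA 1.7, per the submitters' processing notes), counted reads per gene and tested the counts with DESeq2. The deposited table holds read counts and RPKM per gene and sample, and the RPKM that the authors computed followed from count, gene length and library total within 4.99e-07. The counts carry commas within large numbers, and with these removed they were whole numbers in all 22048 rows. They were not tested with DESeq2 here, which departs from the study. The main test used RPKM, and the counts entered the read filter and alternatives such as voom. The use of strand in counting was not given in the sources used here, so Igf1, Igf1r, Igfbp7 and Igfbpl1 could share reads with genes that overlap them in the annotation (Igf1os, Gm51487 and Gm51488, Polr2b and Gm34648, and Stra6l).

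Genes were tested with limma 3.58.1 (R 4.3.3) on log2(RPKM + 0.1) with a mean-variance trend, group as the only term and Benjamini-Hochberg adjustment over 13952 genes, after a filter at the rate of 10 reads in a median library in at least 3 samples and 15 reads in total. Symbols were found for 21781 of 22048 identifiers, and coordinates and promoters come from RefSeq GRCm38.p6. Depth was 16078675 to 19137059 reads per sample. Alternatives were a pseudocount of 1, median-of-ratios scaling, other filters, voom on the counts, sample weights, the replicate number as a block and each sample left out. List medians under these alternatives were added after seeing the data.

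The members and lists were chosen with earlier results of these data known. Named genes were the 10 members, up to 4 genes of smallest unadjusted p per pathway list, 3 genes of highest Pearson r for each of the 3 members of smallest p, and the 2 markers of highest mean RPKM per list. Igf2, Nes, Pax6, Sox1, Sox2, Notch1, Msi1, Map2, Elavl3, Elavl4, Snap25, Stmn2 and Dcx were chosen after their values were seen, although each belonged to a list. The same holds for Gpr17, Bcas1, Sox10, Mbp, Fcer1g and P2ry12. The label "untreated" on NC samples was read with the protocol, which gives corn oil. Same-numbered NC and HE samples correlated at 0.156, 0.0869 and 0.0603 in their deviations, and samples of unlike number at -0.0764 to -0.00114. The design gives no pairs, so the numbers were not taken as pairs, and the replicate block was kept as an alternative.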

Additional observations from a re-analysis of the deposited data

How the results depend on the processing

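Over the 14 fits, 13 alternatives among them, Igfbp6 (1.28 to 1.84 in log2 fold change) and Igfbpl1 (-2.68 to -1.98) kept their direction and an unadjusted p below 0.05 in 14, Insr (-0.59 to -0.40) in 13, Igfbp2 (0.50 to 1.01) and Igfbp4 (0.76 to 1.49) in 10, Igf1r (-0.80 to -0.27) in 5, Igfbp7 (0.30 to 0.71) in 1, and Igf1, Igfbp3 and Igfbp5 in 0. With sample weights, which lower the part of HE3, 268 genes were called and 1883 were higher at an unadjusted p below 0.05, Igfbp3 turned to -0.071 and Igfbp5 to 0.0357. Leaving out 1 sample at a time gave 0 to 103 calls (103 without NC3), 613 to 1305 genes higher (613 without NC1, 667 without NC2) and 729 to 1912 lower (729 without NC1, 971 without NC2) at an unadjusted p below 0.05, and 1 to 3 members higher (1 without HE2 or HE3) and 1 to 3 lower (1 without NC1). In these fits Igfbp5 ran from -0.61 to 0.0395, the latter without HE3, and the Igf1r to Insr ratio from -0.26 to 0.15 (0.02 without NC2, 0.15 without HE3). The cause was not tested. With the replicate block there were 0 calls, 3 members higher and 3 lower at an unadjusted p below 0.05, with Igf1r added, and the ratio difference stayed at -0.10. Igfbpl1 had an adjusted p of 0.0594 by limma with the block. Every sample correlated best with its own number, a hint from the data and not from the design. The list medians ran from -0.44 to 0.02 for the first list, -0.15 to -0.04 for the adaptors, -0.02 to 0.10 for TSC and mTOR and -0.73 to -0.25 for FoxO. With 3 samples a group and 1 of them apart, the intervals of Igf1, Igf1r, Igfbp3, Igfbp5 and Igfbp7 allow differences either way, and Igf1 is limited by its 13 to 22 reads.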
